A study of Homo sapiens with 6 samples.

Results

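The genes described here are 9 regulators and markers of the neural crest-like state of melanoma cells: the nuclear receptor gene RXRG, the AP-2 factor genes TFAP2A, TFAP2B and TFAP2C, the receptor genes NGFR and EDNRB, the transcription factor genes PAX3 and SOX10, and the intermediate filament gene NES. They were chosen by symbol, with their values in this contrast already known, so their levels and differences between the groups are given as a description, without a test. All 9 were found among the 18539 genes of the deposited table, and all 9 passed the filter on low values. The study asks what depletion of MMP9, a secreted gelatinase, does to the transcriptome of melanoma cells. The cells are A375, a line from a human malignant melanoma, and the groups are shControl (3 libraries, control hairpin) and shMMP9 (3 libraries, a hairpin directed at the MMP9 coding region). The MMP9 hairpin was cloned into the lentiviral vector pLKO.1, and infected cells were kept under puromycin. Only 1 hairpin sequence against MMP9 is given. Whether replicates are separate cultures is not stated, so a p-value here reflects differences among these libraries that may be technical.

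The neural crest is a migratory cell population of the embryo that gives rise to melanocytes, to Schwann cells and to other peripheral cell types. SOX10 and PAX3 are transcription factors needed for the melanocyte lineage, AP-2 proteins are transcription factors of the early crest, and endothelin receptor type B guides melanocyte precursors. In melanoma, a state that resembles the crest is recognised by NGFR and by RXRG. The latter is a retinoid X receptor that pairs with other nuclear receptors on DNA. Nestin, the product of NES, is a filament protein of neural and crest progenitors.

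Each level is a scaled count, the gene's count after the libraries were brought to an equal upper quartile, and a log2 difference is shMMP9 minus shControl on the scale log2(scaled count + 1), with its standard error (SE) from limma. This scale understates the change of weakly expressed genes. The libraries held an estimated 21854123 to 28005552 reads in listed genes. MMP9 itself stood at 26.1, 24.3 and 28.7 in the shControl libraries, in replicate order, and at 16.2, 14.6 and 17.1 in the shMMP9 libraries. The groups did not overlap, and MMP9 fell, with a log2 difference of -0.69 (limma, SE 0.0847, adjusted p = 1.25e-05), to 0.605 times its control level. In bulk RNA, fewer cells with a transcript and less transcript per cell cannot be told apart.

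The sequences before the start sites are shown for the only gene of the set that was lower in shMMP9 (TFAP2A) and for a pair of genes that were higher (TFAP2B and NES). They are from RefSeq on GRCh38.p14, which held 8 start sites for 6 of the 9 genes (RXRG, TFAP2A, TFAP2B, EDNRB, PAX3 and NES). TFAP2C, NGFR and SOX10 are named only. Each is read 5′ to 3′ on the gene's own strand. Only bases outside annotated exons are shown, and capitals mark matches to a motif on either strand. The TFAP2A stretch is chr6:10419660-10419909 on the minus strand, the TFAP2B stretch is chr6:50818621-50818722 on the plus strand, and the NES stretch is chr1:156677408-156677657 on the minus strand.
TFAP2A: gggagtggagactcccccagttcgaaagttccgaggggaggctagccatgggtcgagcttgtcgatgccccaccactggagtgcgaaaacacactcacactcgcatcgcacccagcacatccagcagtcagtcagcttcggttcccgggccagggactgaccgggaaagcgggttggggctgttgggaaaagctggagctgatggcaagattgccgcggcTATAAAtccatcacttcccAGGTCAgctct
TFAP2B: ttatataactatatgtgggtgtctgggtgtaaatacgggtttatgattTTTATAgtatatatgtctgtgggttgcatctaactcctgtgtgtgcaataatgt
NES: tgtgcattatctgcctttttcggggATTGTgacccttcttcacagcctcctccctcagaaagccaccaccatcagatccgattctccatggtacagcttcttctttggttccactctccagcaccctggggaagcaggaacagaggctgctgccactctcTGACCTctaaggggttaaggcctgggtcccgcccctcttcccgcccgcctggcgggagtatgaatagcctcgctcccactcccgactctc
In TFAP2A, the capitals are a TATA box (TATAAA), whose first base lies 30 bases before the RefSeq start, and a nuclear receptor hexamer (AGGTCA) 11 bases before it. In TFAP2B, they are the letters TATAAA on the opposite strand, 202 bases before the start, and the shown stretch ends 149 bases before the start. In NES, they are a SOX core (ACAAT) 225 bases before the start and a nuclear receptor hexamer 90 bases before it, both on the opposite strand.

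Over the 250 bases before each start, the search on both strands also covered an AP-2 motif (GCCNNNGGC) and an E-box (CANNTG). Of 35116 RefSeq promoters, 19.8% held the AP-2 motif, 24.6% the SOX core, 12.1% the nuclear receptor hexamer, 61.8% the E-box and 10.7% the letters TATAAA. The AP-2 motif matched at 1 of the 8 start sites, the second of EDNRB, 190 bases before it. SOX cores matched at NES, at TFAP2B 114 bases before the start and at the second TFAP2A start, 186 bases before it. The hexamer matched at TFAP2A, NES and, 231 bases before the start, RXRG. E-boxes matched only at the first EDNRB start, at 221, 151 and 115 bases before it, and none of these motifs matched at PAX3. Outside annotated exons lie only bases 250 to 149 of the TFAP2B window and 175 to 1 of the second EDNRB window. The SOX core of TFAP2B and the AP-2 match of EDNRB thus lie in exons. The first EDNRB window holds 14 bases outside exons and the RXRG window 21. The shares over all promoters do not leave exon bases out. A match is a description of the letters, and no match says only that these letters are not in that window. The TFAP2B window had a GC content of 40.8% and the other 7 windows lay between 50% and 71.2%, against a median of 58% over all promoters.

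All 8 genes other than TFAP2A stood higher in every shMMP9 library than in any shControl library, and TFAP2A stood lower in every one. Across the table, 27.6% of the 17194 tested genes were higher without overlap and 35.1% were lower without overlap. At an adjusted p under 0.05 in limma, 25% of tested genes were called higher and 32.5% lower, and of the 9 genes 8 were called higher and 1 lower. Since the genes were chosen on this contrast, nothing is read from these counts. The median log2 difference was 1.32 over the 9 genes and -0.05 over all tested genes. A difference of at least 1 on the log2 scale was reached by 6 of the 9 genes, all higher in shMMP9, and by 3.22% of all tested genes in that direction.

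**Figure D1:**
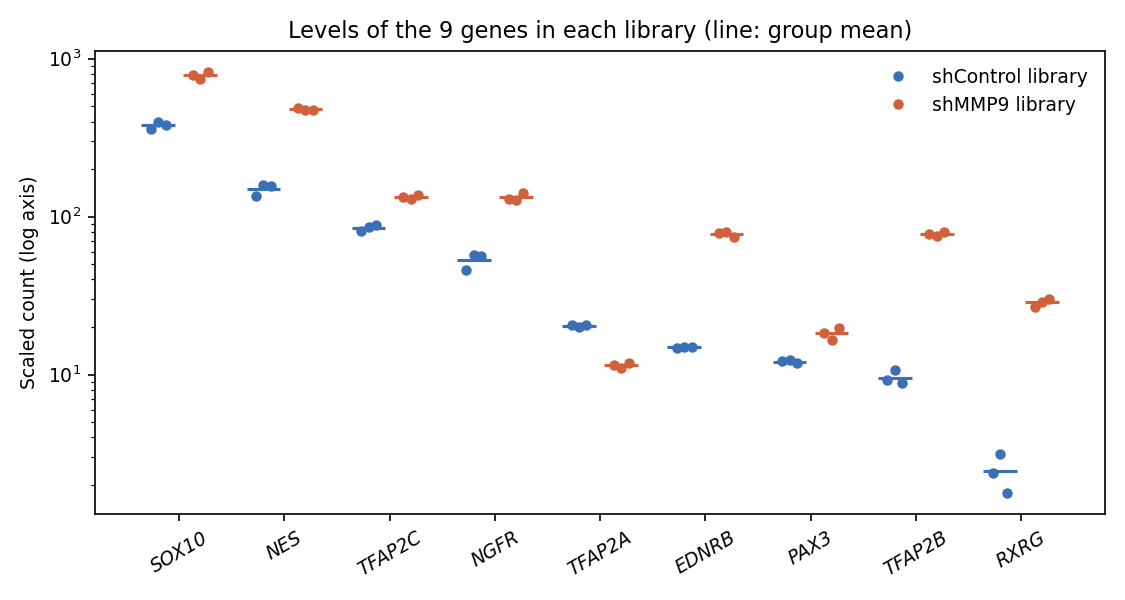
Scaled count (log axis) of each of the 9 genes in every library, with points for shControl and shMMP9 libraries and a line at each group's mean. TFAP2A is the only gene whose shMMP9 points (11.0 to 11.8) lie below its shControl points (19.9 to 20.7), and RXRG shows the widest gap between the groups.

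Among the transcription factors, RXRG (ENSG00000143171.12, chromosome 1, 165400917 to 165445355, minus strand of GRCh38) had the largest difference of the set. Its scaled counts were 2.39, 3.15 and 1.79 in the shControl libraries, in replicate order, and 26.7, 28.99 and 30.3 in the shMMP9 libraries. The lowest shMMP9 library thus lay far above the highest shControl library, and the estimated reads behind the values ran from 48 to 819. The log2 difference was 3.12 (SE 0.132), the 5th largest rise of all tested genes, and the ratio of the means was 11.7. Because the control level is low, the log2 difference of RXRG moved with the pseudocount, from 3.45 at 0.25 to 2.34 at 4.

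The AP-2 genes, which encode closely related factors that bind the same DNA motif, did not differ in the same direction. TFAP2A (ENSG00000137203.11, chromosome 6, 10393186 to 10419659, minus strand) encodes AP-2 alpha, a factor of the early crest and of melanocytes. It stood at 20.6, 19.9 and 20.7 in shControl and at 11.6, 11.0 and 11.8 in shMMP9. The libraries of each group lay close together and the groups did not overlap. Its log2 difference was -0.78 (SE 0.0773), a level 0.562 times that of the control.

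TFAP2B (ENSG00000008196.12, chromosome 6, 50818723 to 50847613, plus strand) encodes AP-2 beta, also expressed in the crest. Its values were 9.19, 10.7 and 8.81 in shControl and 77.7, 75.7 and 79.8 in shMMP9. All shMMP9 libraries were several times higher than any control library, with a log2 difference of 2.90 (SE 0.0744), the 9th largest rise of all tested genes, and a ratio of 8.14. TFAP2C (ENSG00000087510.6, chromosome 20, 56629302 to 56639283, plus strand), which encodes AP-2 gamma, a factor of trophoblast and ectoderm, stood at 81.2, 85.5 and 89.0 in shControl and at 134, 129 and 137 in shMMP9. The groups were apart, but the shift was smaller, 0.64 (SE 0.0509) with a ratio of 1.56.

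Per kb of exon, the AP-2 transcripts summed to 32.4 ± 1.28 in shControl and 58.3 ± 1.68 in shMMP9 (SD, n = 3). TFAP2C was most of this sum in every library, 87.6% ± 0.617 in shControl and 75.9% ± 0.0642 in shMMP9. TFAP2B went from 4.80% ± 0.525 to 21.7% ± 0.0828 of the sum, and TFAP2A from 7.62% ± 0.360 to 2.38% ± 0.0198. TFAP2A was thus above TFAP2B in shControl and far below it in shMMP9. With the length of the longest coding transcript in place of all exons, a setting chosen after seeing the data, TFAP2A held 14.5% and 4.76% and TFAP2B 4.51% and 21.4%, in the same order. The other listed AP-2 gene, TFAP2E, had a mean of 0.510 in shControl and 0.630 in shMMP9 and did not pass the test (log2 difference 0.10, adjusted p = 0.531, limma).

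SOX10 (ENSG00000100146.16, chromosome 22, 37970686 to 37987422, minus strand) was the most abundant of the 9 genes, with the 158th highest mean level of all tested genes. It stood at 358, 395 and 380 in shControl and at 784, 744 and 826 in shMMP9. Every shMMP9 library was far above the highest shControl library, and the log2 difference was 1.05 (SE 0.0559), a ratio of 2.08. PAX3 (ENSG00000135903.19, chromosome 2, 222199888 to 222298996, minus strand), a paired-box factor that acts with SOX10 on the MITF promoter, stood at 12.2, 12.3 and 11.8 in shControl and at 18.4, 16.6 and 19.7 in shMMP9. Its shControl libraries were nearly level, its shMMP9 libraries were more spread, and the groups did not overlap. Its difference, 0.55 (SE 0.0851), was the smallest of the set in size.

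Of the receptor genes, NGFR (ENSG00000064300.8, chromosome 17, 49495293 to 49515017, plus strand) encodes the low-affinity neurotrophin receptor p75, also called CD271. Its values were 45.6, 57.5 and 56.0 in shControl and 130, 128 and 141 in shMMP9. The groups were well apart, with shControl replicate 1 the lowest library, and the log2 difference was 1.32 (SE 0.0774), a ratio of 2.51. EDNRB (ENSG00000136160.15, chromosome 13, 77895481 to 77975529, minus strand) encodes endothelin receptor type B, a G protein-coupled receptor. It stood at 14.8, 14.9 and 14.9 in shControl and at 79.2, 79.8 and 74.6 in shMMP9. The shControl libraries were nearly identical and the shMMP9 libraries were all far higher, with a log2 difference of 2.31 (SE 0.0586) and a ratio of 5.24.

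The level of EDNRB stands beside a shift of its chromosome. Over the 197 chromosome 13 genes with a mean scaled count of 5 or more the median log2 difference was 0.28, against -0.02 over all such genes. The medians of chromosomes 1, 2, 6, 17, 20 and 22, which hold the other 8 genes, lay between -0.11 and 0.01. Other genes named below also lie on chromosome 13, among them SLITRK6, TNFRSF19 and SHISA2, which were higher in shMMP9, and POU4F1 and ZIC2, which were lower. The part of the chromosome 13 shift in the values of EDNRB and of these genes was not tested.

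NES (ENSG00000132688.10, chromosome 1, 156668763 to 156677397, minus strand) stood at 134, 159 and 156 in shControl and at 490, 473 and 475 in shMMP9. Every shMMP9 library was higher, with a log2 difference of 1.67 (SE 0.0614) and a ratio of 3.20. In shControl, replicate 1 was the lowest library for NES, NGFR, SOX10, TFAP2C and, narrowly, EDNRB, by less than the gap between the groups in each case.

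**Figure D2:**
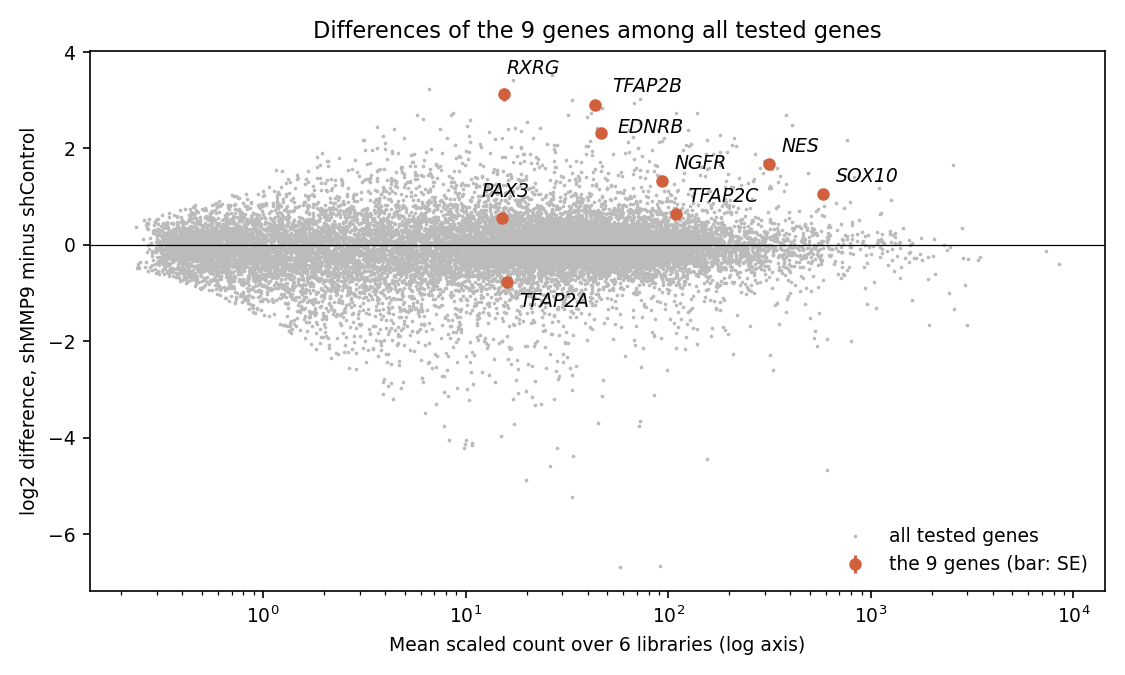
Log2 difference (shMMP9 minus shControl) against the mean scaled count over 6 libraries (log axis) for all tested genes in grey, with the 9 genes marked and a bar for the SE. RXRG (3.12) and TFAP2B (2.90) lie at the upper edge of the cloud, SOX10 (1.05) lies furthest to the right of the marked genes and TFAP2A (-0.78) is the only marked gene below 0.

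Levels of different genes were compared per kb of exon. In shControl the order was SOX10 (101.8 ± 4.97), TFAP2C (28.4 ± 1.30), NES (27.0 ± 2.46), NGFR (12.8 ± 1.55), EDNRB (2.65 ± 0.0142), TFAP2A (2.46 ± 0.0525), TFAP2B (1.55 ± 0.159), PAX3 (1.52 ± 0.0324) and RXRG (0.906 ± 0.253), all in scaled counts per kb (SD, n = 3). TFAP2C and NES overlapped in range, as did TFAP2B and PAX3, and these neighbours are not ordered beyond their spread. In shMMP9 the order was SOX10 (212 ± 10.95), NES (86.2 ± 1.68), TFAP2C (44.3 ± 1.30), NGFR (32.1 ± 1.77), EDNRB (13.9 ± 0.506), TFAP2B (12.6 ± 0.336), RXRG (10.6 ± 0.676), PAX3 (2.30 ± 0.193) and TFAP2A (1.39 ± 0.0499), and no neighbours overlapped. TFAP2A went from the sixth place to the last and RXRG from the last to the seventh. With the longest coding transcript as the length, the shMMP9 order was the same, while in shControl TFAP2A (5.33) and PAX3 (3.81) stood above EDNRB (3.32), so the middle of the control order depends on the length used.

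**Figure D3:**
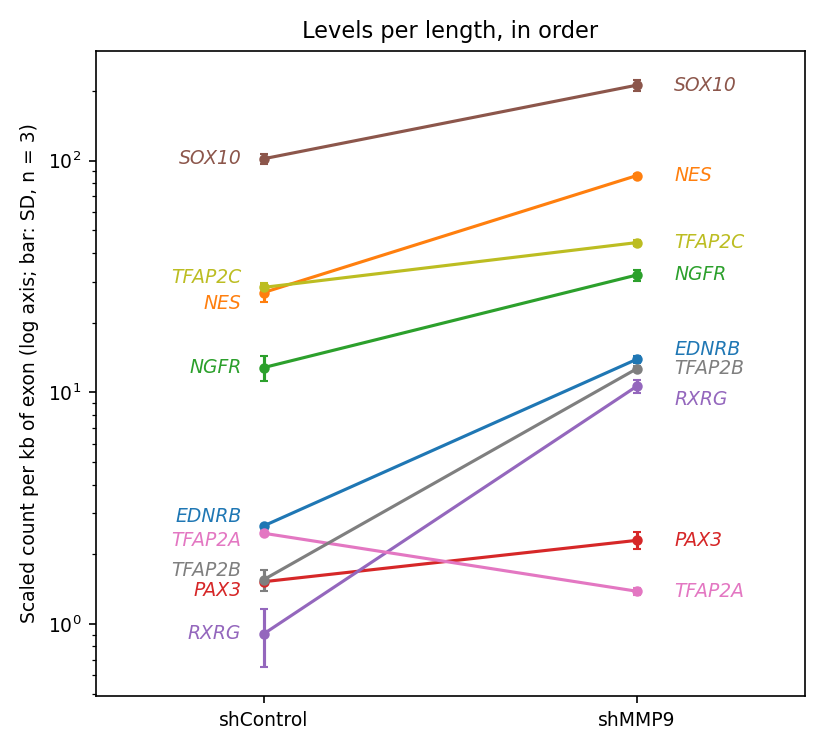
Scaled count per kb of exon (log axis) of the 9 genes in shControl and shMMP9, as group means joined by a line, with SD bars (n = 3). SOX10 is at the top in both groups (101.8 and 212), the lines of TFAP2B and RXRG end well above that of PAX3, and the line of TFAP2A descends to the lowest place (1.39).

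Genes that work with the members were taken from 10 lists. The lists were chosen with earlier results of these data known, so their counts and medians are a description. Counts for these lists leave the 9 genes out. Over all lists, 69 of 160 tested genes rose, 57 fell, and the median log2 difference was 0.11, beside 25% and 32.5% of all tested genes and a median of -0.05. Some genes are in several lists, among them MITF, CITED1, SOX2 and FOXD3.

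For the AP-2 factors, 4 of 9 tested partner genes rose and 2 fell, with a median of 0.15. KCTD15, an inhibitor of AP-2 activity in the crest, rose from 23.8 ± 0.929 to 50.8 ± 1.02 (log2 difference 1.06, adjusted p = 5.5e-09, limma). CITED2, a coactivator of AP-2, fell from 59.7 ± 4.39 to 31.1 ± 1.69 (-0.92, adjusted p = 8.44e-08). The acetyltransferase genes EP300 and CREBBP, whose products AP-2 and many other factors recruit, rose by 0.81 and 0.57.

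For RXRG, 7 of 16 tested nuclear receptor genes rose and 3 fell, with a median of 0.17. The orphan receptor genes NR4A2 and NR4A1, whose products are early response factors, rose by 2.58 (from 2.28 to 18.7) and by 1.61 (from 70.9 to 218). RXRA, the retinoid X receptor alpha gene, rose from 24.9 ± 2.39 to 38.5 ± 0.650 (0.61, adjusted p = 9e-06, limma), and the retinoic acid receptor gene RARG rose by 0.76. Chosen after their values were seen, the genes of the list that fell were RARB, another retinoic acid receptor gene (from 2.28 to 0.819, -0.85, adjusted p = 0.000107), PPARD (-0.27, adjusted p = 0.00761) and NR1H3 (-0.23, adjusted p = 0.0431). The NR1H3 call ended with the replicate block, under both other scalings (-0.17 in each) and without shControl replicate 1 (-0.23), 2 (-0.23) or 3 (-0.22) or shMMP9 replicate 1 (-0.17) or 3 (-0.22). RARA, chosen in the same way, stood at 60.3 ± 7.94 and 58.7 ± 1.12 (-0.03, adjusted p = 0.762) and was called lower only without shControl replicate 1 (-0.14). RXRB stood at 53.5 ± 2.38 and 52.6 ± 1.73 and did not pass the test (-0.02, adjusted p = 0.729).

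Around NGFR the counts ran the other way: 12 of 18 tested genes of the neurotrophin axis fell and 3 rose, with a median of -0.31. Of the ligand genes, BDNF fell from 12.0 ± 1.94 to 5.71 ± 0.343 (-0.94, adjusted p = 1.48e-05, limma) and NTF4 from 0.869 ± 0.208 to 0.0938 ± 0.0664 (-0.77). NTF3 was not in the table.

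Among the TRK receptor genes, whose products bind neurotrophins with high affinity, NTRK3 rose from 0.239 ± 0.228 to 1.42 ± 0.551 (0.96, adjusted p = 0.000605, limma). Its shControl values were 0.0356, 0.195 and 0.485, in replicate order, and the first is the value of 1 read. The size of the NTRK3 rise is thus uncertain. NTRK2 (-0.39, adjusted p = 0.0394) was called lower, and the call ended under limma-voom (-0.92) and under both other scalings (-0.36 in each). It also ended without shControl replicate 3 (-0.29) or shMMP9 replicate 2 (-0.26) or 3 (-0.42). SORT1, the gene of the p75 co-receptor sortilin, fell by 0.26. Of genes whose products bind the inner part of p75, MAGED1 fell from 156 to 114 (-0.45), RIPK2 from 43.0 to 23.5 (-0.85) and BEX1 from 2.67 to 0.614 (-1.19).

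Beside EDNRB, 2 of 8 tested genes of the endothelin axis rose and 3 fell, with a median of 0.03. The ligand gene EDN1 fell from 8.30 ± 1.06 to 0.284 ± 0.161 (-2.86, SE 0.140, adjusted p = 1.42e-09, limma), and EDN2 and EDN3 were not in the table. EDNRA, the type A receptor gene, stood at 1.89 ± 0.201 and 2.31 ± 0.0833 (0.19, adjusted p = 0.19), and ECE1, which encodes the enzyme that matures endothelin, at 131 ± 10.5 and 132 ± 4.47 (0.01, adjusted p = 0.874). ECE1 was chosen after its value was seen. Of the signalling genes after the receptor, the G protein genes GNAQ and GNA11 rose by 0.73 and 0.76 and the protein kinase C gene PRKCE fell by 0.84. PLCB4, a phospholipase C gene, fell by 1.13 and was chosen after its value was seen.

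**Figure D4:**
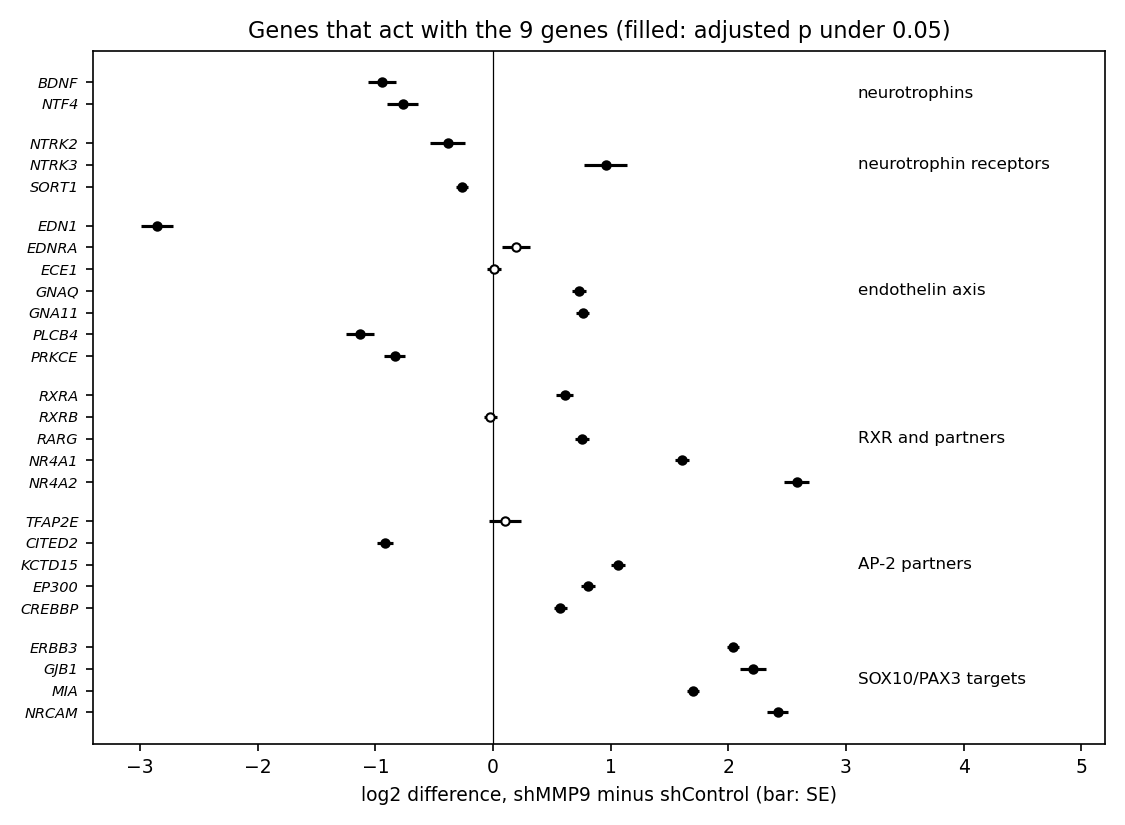
Log2 differences (shMMP9 minus shControl, bar: SE) of genes that work with RXRG, the AP-2 factors, NGFR and EDNRB and of 4 targets of SOX10 and PAX3, with filled points where the adjusted p was under 0.05. The neurotrophin gene BDNF (-0.94) and the endothelin gene EDN1 (-2.86) lie on the left, while NR4A2 (2.58) and KCTD15 (1.06) lie on the right.

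Of 14 tested targets of SOX10 and PAX3, 9 rose and 3 fell, with a median of 1.20. ERBB3, a neuregulin receptor gene of the crest lineage, rose from 84.1 ± 4.27 to 349 ± 2.84 (2.04, SE 0.0488, adjusted p = 2e-12, limma). MIA, which encodes a protein secreted by melanoma cells, rose from 58.9 ± 3.34 to 193 ± 4.17 (1.70), the gap junction gene GJB1 from 2.24 to 13.95 (2.21) and the adhesion gene NRCAM from 4.83 to 30.2 (2.42). The calcium-binding protein gene S100B, chosen after its value was seen, also rose (1.48). Among the genes that fell were MITF (-0.34) and the receptor tyrosine kinase gene MET (-0.60), the latter also chosen after its value was seen.

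MITF encodes the master factor of melanocyte differentiation and is a direct target of SOX10 and PAX3. It went from 35.5 ± 2.48 to 27.7 ± 0.876 (adjusted p = 0.000666, limma), in the opposite direction to both. In the list of melanocyte differentiation genes, 7 of 12 tested rose and 2 fell, with a median of 0.46. MELTF, the melanotransferrin gene, rose from 101 to 179 (0.82), MC1R, the melanocortin receptor gene, rose by 0.76 and CITED1 rose from 1.03 to 4.79 (1.52). Of the pigment genes, PMEL was low in both groups, at 1.70 ± 0.186 and 1.76 ± 0.274 (0.03, adjusted p = 0.876), and MLANA and TYRP1 were too low to be tested. TYR and DCT were not in the table. It lists only genes with a read in every library, so their level in either group is not known.

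Other markers of the neural crest stem-like melanoma state were mixed, with 13 of 25 tested higher and 8 lower and a median of 0.30. PLAT, the tissue plasminogen activator gene, rose by 2.22, the calcium-binding protein gene S100A4 by 2.29, the neuronal membrane protein gene SLITRK6 from 22.9 to 111 (2.23) and the laminin receptor gene ITGA6 by 1.65. Among markers chosen after their values were seen, GFRA1, a co-receptor gene for glial cell line-derived neurotrophic factor, went from 11.3 to 0.813 (-2.76), the adhesion gene L1CAM from 258 to 101 (-1.35), and AQP1 from 2.86 to 3.23 (0.13, adjusted p = 0.412, limma).

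Of 28 tested neural crest specifier genes, 14 rose and 8 fell, with a median of 0.29. The largest of the rises the naming rule takes was PRRX1, a mesenchymal homeobox gene, at 3.26, and SOX5, a regulator of SOX10 activity, rose from 49.0 to 175 (1.82). SOX9, a crest and cartilage factor of the same SOX subgroup as SOX10, fell from 28.8 ± 1.14 to 0.923 ± 0.306 (-3.97, SE 0.124, adjusted p = 1.84e-11, limma), and ETS1, another crest factor, fell from 255 to 118 (-1.11). The crest factor FOXD3 rose from 5.40 to 18.96 (1.64), SNAI2 from 1.51 to 6.41 (1.57) and SOX8 from 0.419 to 3.74 (1.74). In the other direction, ZIC2 fell from 13.9 to 4.25 (-1.51), TCF4 from 30.1 to 15.2 (-0.94) and MSX1 from 28.7 to 17.3 (-0.70). FOXD3, SNAI2, SOX8, ZIC2, TCF4 and MSX1 were chosen after their values were seen.

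All 20 genes of the dedifferentiated, mesenchymal melanoma state were called, 14 lower and 6 higher, with a median of -1.19. The cytokine gene IL6 fell by 4.58, the matricellular protein gene CYR61 from 567 to 92.5, its relative CTGF by 1.83 and the adhesion gene AMIGO2 by 2.06. The receptor tyrosine kinase genes AXL (-1.22) and EGFR (-1.16) also fell, whereas TNC rose from 473 to 867 (0.87), ITGA5 by 0.57 and WNT5A by 0.46. AXL, EGFR, TNC, ITGA5 and WNT5A were chosen after their values were seen. Of 14 tested partners of nestin, 7 rose and 3 fell, with a median of 0.30. The neurofilament gene NEFL rose from 23.6 to 70.1 (1.54), SYNM, the gene of the filament protein synemin, by 0.83, and SOX2 and POU3F2, factors that act on the nestin enhancer, by 1.57 and 1.23. VIM, whose product assembles with nestin, stood at 2523 ± 232 and 2424 ± 62.4 (-0.05, adjusted p = 0.556, limma), was called lower only without shControl replicate 1 (-0.13), and was chosen after its value was seen.

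**Figure D5:**
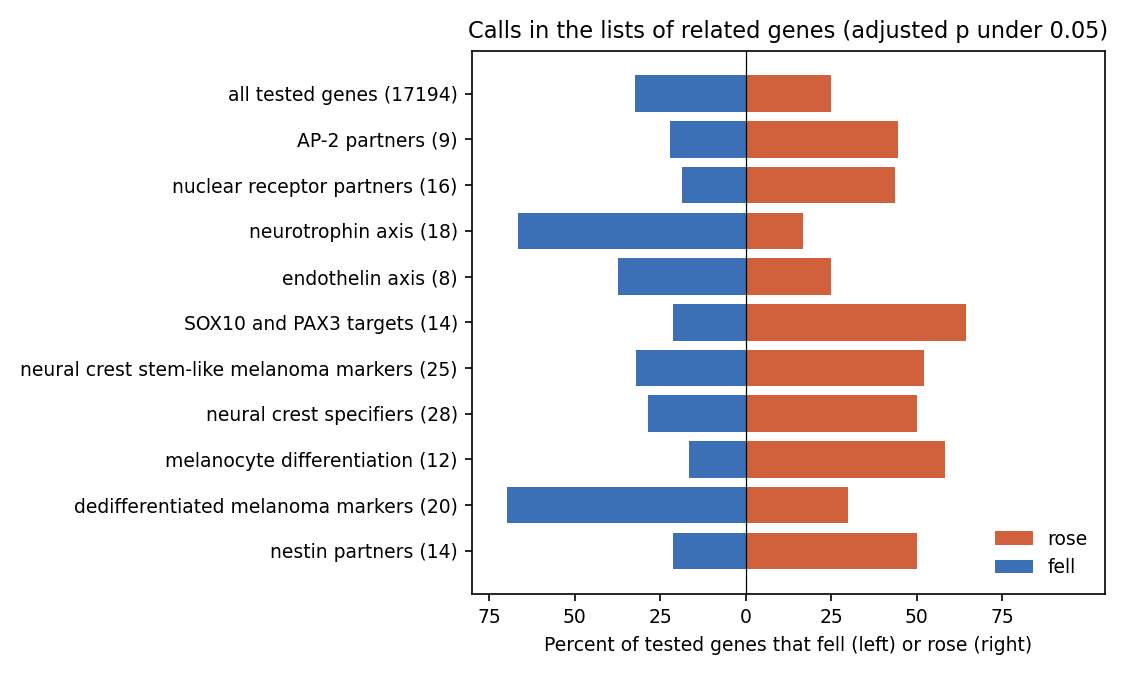
Percent of tested genes that fell (left) or rose (right) at an adjusted p under 0.05 in each of the 10 lists, with the 9 genes left out, and over all tested genes. All genes stand at 32.5% lower and 25% higher. The targets of SOX10 and PAX3 have the largest share that rose (9 of 14) and the dedifferentiated markers the largest share that fell (14 of 20). The neurotrophin axis has the smallest share that rose (3 of 18).

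The melanoma label was checked against markers of other cell types, whose part in the results above was not tested. Of melanocyte lineage markers (5 tested, SOX10 among them), 3 were called higher and 1 lower. Their scaled counts summed to 467 to 499 in shControl and 998 to 1072 in shMMP9. These sums are mostly SOX10, which averaged 378 and 785. SOX10 is also 1 of the 3 called higher, and it was chosen on this contrast, so the rise of the sum largely restates that choice. Schwann cell markers summed to 178 to 181 and 291 to 300, with 6 of 8 tested higher and none lower, and MBP too low to be tested. Keratinocyte markers summed to 72.8 to 84.9 and 133 to 141, mostly KRT10, with all 3 tested higher. The basal keratin gene KRT14 rose from 4.04 ± 0.482 to 19.7 ± 1.53 (2.04, adjusted p = 2.87e-09, limma), while its partner KRT5 averaged 0.370 and 0.0367 and was too low to be tested, and KRT1, DSG3 and IVL were not in the table. Fibroblast markers summed to 27.6 to 29.7 and 12.1 to 13.3 (1 of 4 tested higher, 3 lower), with COL1A2, COL3A1 and THY1 too low to be tested.

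Endothelial markers summed to 55.2 to 64.3 in shControl and 21.8 to 25.3 in shMMP9 (2 of 5 tested higher, 2 lower). The shControl sum was mostly TIE1, which fell from 49.9 ± 3.41 to 4.56 ± 0.617 (-3.20), whereas KDR rose from 6.44 ± 0.414 to 16.1 ± 0.537 (1.20), and CDH5, the defining cadherin, averaged 0.769 and 0.110. Leukocyte markers summed to 114 to 135 and 98.0 to 101 (1 of 3 tested higher, 1 lower), nearly all CD68, and PTPRC and CD3E were not in the table. Neuron markers summed to 271 to 337 and 380 to 426 (2 of 6 tested higher, 2 lower), nearly all TUBB3.

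Several members share their locus with another listed gene, and since the strand setting of the counting is not given, reads of overlapping genes cannot be told apart. TFAP2A-AS2, on the strand opposite to TFAP2A, fell from 2.84 to 1.54 (-0.60, adjusted p = 0.000841, limma). AL139002.1, on the same strand as EDNRB, rose from 1.37 to 3.80 (1.02, adjusted p = 6.32e-05). POLR2F, an RNA polymerase subunit gene that overlaps SOX10 on the opposite strand, rose from 104 to 127 (0.29, adjusted p = 0.000505), a smaller difference than that of SOX10. TFAP2A-AS1 and CCDC140, which overlap TFAP2A and PAX3, were too low to be tested.

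The nearest listed genes that do not overlap differed in both directions. Near RXRG, MGST3 (186 kb away) stood at 31.7 and 31.9 (0.02, adjusted p = 0.878, limma). Near TFAP2A, GCNT2 (72.6 kb) fell by 0.55, and near TFAP2B, CRISP2 fell by 0.65 and PKHD1 rose by 0.58, at 1105 and 768 kb. Near EDNRB, POU4F1 (623 kb) fell by 1.42 and SLAIN1 (131 kb) had a difference of -0.23 (adjusted p = 0.0688). BMP7, a neighbour of TFAP2C at 529 kb, rose by 0.76, and SPOP, a neighbour of NGFR at 83.9 kb, fell by 0.21 (adjusted p = 0.019). The SPOP call ended under both other scalings (-0.15 in each) and without the variance trend (-0.21). It also ended without shControl replicate 2 (-0.16) or 3 (-0.20) or shMMP9 replicate 2 (-0.20) or 3 (-0.17). Beside NES, CRABP2 (22.2 kb), a retinoic acid binding protein gene, had a difference of 0.11 (adjusted p = 0.503), and AL590666.2 (7.34 kb) rose by 0.31 (adjusted p = 0.00952), a call lost without shMMP9 replicate 3 (0.23).

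Genes with the pattern most like each member were found by the root mean square (RMS) distance of log2 values, centred on each gene's mean, over the 6 libraries, among 9979 genes with a mean scaled count of 10 or more. The distance follows mostly the size of the difference between the groups, on which the genes were chosen. For RXRG the nearest gene was another member, TFAP2B (RMS distance 0.153), followed by AKR1C2 (0.166) and PDK4 (0.168). TFAP2B itself was nearest to IGFBP5 (0.0477), SHISA2 (0.0988) and PDK4 (0.101), and genes among the nearest to TFAP2A were PCYT1B (0.0246) and UCK2 (0.0330). AKR1C2 has close homologues, so its reads are uncertain.

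TFAP2C had the closest match of the set, LRPAP1 (0.0136), then PRKCH (0.0226) and LPCAT3 (0.0260). Among the genes nearest to SOX10 were HPCAL1 (0.0271) and KCNN4 (0.0318), and PAX3 was nearest to TSPAN4 (0.0249), NAA35 (0.0306) and TSHZ1 (0.0344). For NGFR they were FGFRL1 (0.0489), CXXC5 (0.0528) and GSN (0.0529), and for EDNRB TNFRSF19 (0.0447), MOK (0.0536) and SLC7A11 (0.0559). For NES they were FRMD3 (0.0463), GAS7 (0.0483) and NR4A1 (0.0567).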

How the data were processed

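RNA-seq values of 6 A375 libraries, 3 per group, were taken from the deposited table, with groups and replicate numbers from the labels. The tools named are STAR 2.6.1d and Partek, and the build is hg38, per the submitters' processing notes. Not given in the sources used here are the counter, annotation, strand setting and filter. As deposited by the authors, the values are on a log2 scale, log2(scaled count + 1), with an equal upper quartile in each library, although the table is named as counts. Whole multiples of 1 step (64.6 to 67.7% of values per library, within 0.01) gave estimated reads, and each listed gene had at least 1 read in every library, so a gene silent in some library cannot be seen.

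From these values, genes reaching 10 reads (at the median depth) in at least 3 libraries, and 15 reads in all, were kept (17194 of 18539). They were tested with limma 3.58.1 in R 4.3.3 with a variance trend, with Benjamini-Hochberg adjustment over all tested genes and a threshold of 0.05. Libraries of a group differed beyond sampling noise, which does not tell separate cultures from separate preparations of the same culture. Each library was kept as its own replicate. Symbols were matched to GENCODE 29 for 99.5% of genes, which gave positions and exon lengths. Figures were drawn with matplotlib 3.10.9.

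The 9 genes and all gene lists were chosen with earlier results of these data known. The text names, by rule, the 9 genes, MMP9, the 4 tested genes of each pathway list with the smallest adjusted p, the tested AP-2, RXR, neurotrophin and endothelin ligand or receptor genes, the 3 genes most alike to each member, and overlapping or nearest neighbours. Other names are marked as chosen after their values were seen, except marker genes, which are named by their list, and a few of those covered by the rule are not reported here. Alternatives were other scalings, pseudocounts and filters, no variance trend, limma-voom, a stricter threshold, the replicate number as a block and each library left out.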

Additional observations from a re-analysis of the deposited data

How the results depend on the processing

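In all 16 alternatives the 9 genes kept their directions, with 8 called higher and 1 lower each time, which restates how they were chosen. Their log2 differences ranged from 2.34 to 3.56 for RXRG, 2.59 to 3.02 for TFAP2B, 2.12 to 2.39 for EDNRB, 1.60 to 1.73 for NES, 1.21 to 1.38 for NGFR, 1.02 to 1.11 for SOX10, 0.60 to 0.70 for TFAP2C, 0.46 to 0.61 for PAX3 and -0.83 to -0.66 for TFAP2A. With a minimum mean scaled count of 5, which leaves 11490 genes to test, the neurotrophin axis had 6 lower calls in place of 12, the neural crest specifiers 9 higher in place of 14, and melanocyte differentiation 3 higher and 1 lower in place of 7 and 2. Fewer genes tested account for these by construction. Across the table, 4304 genes rose and 5584 fell, and 5013 and 4875 did under median-of-ratios scaling. Leaving out each library in turn gave 3759 to 4511 rises and 4917 to 5714 falls.

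With the replicate block, 4211 genes rose and 5486 fell, and 69 and 56 of the pathway genes did, against 69 and 57 without it. Deviations of libraries with the same number correlated at 0.04, -0.13 and -0.03, so the numbers were not taken as pairs. Of 121 other genes taken by the naming rule or by their values, 5 lost their call in some setting (NTRK2, SPOP, AL590666.2 and NR1H3 among them), 4 gained one (RARA and VIM without shControl replicate 1, C22orf23 without shControl replicate 3, and SLAIN1 without the variance trend) and 0 reversed. Genes with few reads, RXRG in shControl among them, have the least certain fold changes.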
